A study of Mus musculus with 12 samples.

Results

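The Kruppel-like factors examined here were Klf2, Klf3, Klf4, Klf6, Klf7, Klf9, Klf10 and Klf13, 8 of the 17 genes of the deposited table whose symbol is Klf followed by a number, among 43278 rows in all. They were chosen by name with their values in these same libraries in view, so their levels and changes are a description, and nothing is read from how many of them passed a test. RNA was sequenced from 12 cultures of peritoneal macrophages (PMφs) of wild-type C57BL/6J mice, 3 per group. The groups were control PMφs, PMφs loaded for 24 h with oxidized low-density lipoprotein (oxLDL, 100 µg/ml), PMφs treated with LPS, the endotoxin that activates TLR4, at 10 ng/ml, and PMφs given oxLDL and then LPS. All groups came from thioglycolate-elicited cells of adult male and female mice, which the study's methods say were pooled and divided among the groups, and were kept as adherent cells in culture; how long LPS was applied is not given for these libraries.

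KLFs are zinc finger transcription factors that bind GC-rich and CACCC elements of DNA. The branches of the family are told apart by the partners of their amino-terminal regions. KLF3, KLF8 and KLF12 recruit the co-repressor CtBP, KLF1, KLF2, KLF4, KLF5, KLF6 and KLF7 mostly activate transcription with acetyltransferases, and KLF9, KLF10, KLF11, KLF13, KLF14 and KLF16 bind the co-repressor SIN3A. In macrophages KLF2 is known to restrain NF-κB target genes, KLF4 to favour alternative activation, and KLF6 to act together with NF-κB at inflammatory promoters.

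The sequences below show DNA before 5 of the genes. These are Klf2, Klf3, Klf4 and Klf6, which were higher with LPS, and Klf9, which was lower. They were taken from RefSeq on GRCm38.p6, which had an entry for 7 of the 8 genes and none for Klf10, and each is written 5′ to 3′ on the strand of its gene. Only bases before the gene start of both RefSeq and GENCODE are shown. That leaves none for Klf7, which rose most with LPS, since its RefSeq window (chr1:64121340-64121639) lies inside its GENCODE gene. Klf13 had such a stretch too, which is not printed. Each printed stretch starts 250 bases before the RefSeq start and ends 51 bases before it, or 134 bases in Klf3. The bases nearest the start are therefore not printed. Capitals mark GC boxes (GGGCGG on either strand), CCAAT boxes (CCAAT on either strand) and, in Klf2, a match to CTANNNNTAG, the core of the site that MEF2 factors bind. The stretches are chr8:72318812-72319011 on the plus strand for Klf2, chr5:64803271-64803387 on the plus strand for Klf3, chr4:55532526-55532725 on the minus strand for Klf4, chr13:5861239-5861438 on the plus strand for Klf6 and chr19:23140976-23141175 on the plus strand for Klf9.
Klf2: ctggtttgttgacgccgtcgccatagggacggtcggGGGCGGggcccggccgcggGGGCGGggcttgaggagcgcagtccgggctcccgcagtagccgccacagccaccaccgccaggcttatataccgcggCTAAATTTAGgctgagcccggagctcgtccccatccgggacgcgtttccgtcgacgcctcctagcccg
Klf3: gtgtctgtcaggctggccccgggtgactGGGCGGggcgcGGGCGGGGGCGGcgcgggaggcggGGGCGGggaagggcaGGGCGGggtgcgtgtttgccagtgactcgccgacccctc
Klf4: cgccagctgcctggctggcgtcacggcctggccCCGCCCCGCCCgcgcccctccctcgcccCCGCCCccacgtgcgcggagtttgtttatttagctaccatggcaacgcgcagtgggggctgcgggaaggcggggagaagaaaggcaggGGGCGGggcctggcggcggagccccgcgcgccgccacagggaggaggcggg
Klf6: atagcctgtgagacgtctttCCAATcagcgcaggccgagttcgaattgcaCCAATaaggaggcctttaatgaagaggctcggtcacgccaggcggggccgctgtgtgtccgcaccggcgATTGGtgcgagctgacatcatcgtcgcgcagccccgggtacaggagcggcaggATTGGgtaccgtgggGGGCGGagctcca
Klf9: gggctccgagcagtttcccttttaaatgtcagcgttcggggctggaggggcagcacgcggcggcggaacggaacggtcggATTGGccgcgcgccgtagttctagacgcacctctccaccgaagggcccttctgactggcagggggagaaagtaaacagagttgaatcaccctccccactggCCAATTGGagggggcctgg

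In the full windows, from 250 bases before to 50 after the start, the GC box was present 2 times in Klf2, 6 times in Klf3, 4 times in Klf4, 1 time in Klf6, 1 time in Klf7 and 3 times in Klf13, and it was not among the letters of the Klf9 window. A pair of those in Klf4 share a base, and 5 of the 6 in Klf3 lie in the stretch shown. Of 32851 RefSeq windows of the same length, 35.7% held it. CCAAT boxes, held by 37.4% of all windows, were found 4 times in Klf6, 3 times in Klf9, with a pair that overlap, and 2 times in Klf13. The MEF2-type match of Klf2 lay 118 to 109 bases before the start, and 3.69% of all windows held such a match. No window of the 7 genes held a match to the consensus of NF-κB (4.51% of all windows) or of the SRF-binding CArG box (1.63%), which says only that these letters are not in the windows. The GC content of the 7 windows ran from 58.3% in Klf7, whose window lies inside its GENCODE gene, to 76.7% in Klf3, against a median of 52.7% over all windows.

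The deposited values were whole numbers that keep the spacing of read counts after division by a factor common to the library and rounding, and they are called normalized counts here. They summed to 17.15 to 17.71 M in libraries without LPS and to 22.07 to 26.38 M in libraries with LPS, and the spacing of the values implied 16.73 to 26.18 M reads on genes per library. Setting every library to the same total would move the median of all genes tested by −0.48 on the log2 scale in LPS against control, and by −0.39 in oxLDL+LPS against oxLDL, so each log2 difference below is relative to a median gene that lies near 0. A gene that is higher with LPS by less than these amounts would be lower on the scale of equal totals. Macrophage markers were high in every library, with 5 of 6 markers in the table summing to 225054 to 289425. Markers of mesothelial cells and fibroblasts (6 of 6 in the table, mostly Col1a1 and Col3a1) summed to 10159 to 17135 in the libraries of replicate 1, 7902 to 9838 in replicate 2 and 2775 to 3395 in replicate 3. The endothelial list summed to 1263 to 2313 without LPS and 688 to 1359 with it, nearly all from Vwf and Kdr, while Pecam1 was at 1 to 12 and Tek at 0 to 3. Lists for T cells, B cells, neutrophils, eosinophils and mast cells each summed to at most 385, and Ly6g, which defines neutrophils, was at 0 in every library. In such bulk samples fewer cells of a type and less RNA per cell cannot be told apart.

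The replicate numbers did not all mark the same pool of cells. Xist, which is transcribed in female cells, was at 1 and 2 in the control and oxLDL libraries of replicate 1 but at 6331 and 3812 in its LPS and oxLDL+LPS libraries. The Y-linked genes Ddx3y, Eif2s3y, Kdm5d and Uty summed to 3138 and 3009 without LPS and to 1023 and 1004 with LPS in that replicate. In replicate 2 these 4 genes summed to at most 2 in every group, and replicate 3 held transcripts of both kinds in every group. The libraries labelled replicate 1 therefore pair within each LPS state but not across it. The fits of the listed KLF genes and most list counts across LPS states are also given without them, and those of single list genes mostly are not.

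Klf6 had the highest level of the 8 genes per length of exon in every group. Its normalized count per kilobase of all annotated exon sequence averaged 1417 ± 92.2 over the control libraries and 3978 ± 746 with LPS (SD, n = 3 each), or 51.2% and 72.3% of the sum over the 17 KLF genes. In control PMφs Klf13 (408 per kilobase) came next, followed by Klf9 (262), Klf10 (251), Klf4 (118), Klf2 (62.8), Klf3 (51.1) and Klf7 (33.4). In this order the ranges of the 3 libraries overlapped between Klf9 and Klf10 and between Klf2 and Klf3, and not between the other neighbours. Under LPS the order was Klf6, Klf13 (361 per kilobase), Klf4 (221), Klf9 (185), Klf10 (138), Klf7 (137), Klf2 (125) and Klf3 (118). There the ranges of Klf10, Klf7, Klf2 and Klf3 overlapped throughout, as did those of Klf4 and Klf9, whereas the lowest Klf9 library (166) lay above the highest Klf10 library (163). The exon length covers all isoforms, so a gene with a long and rarely used exon has too low a level on this scale.

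**Figure D1:**
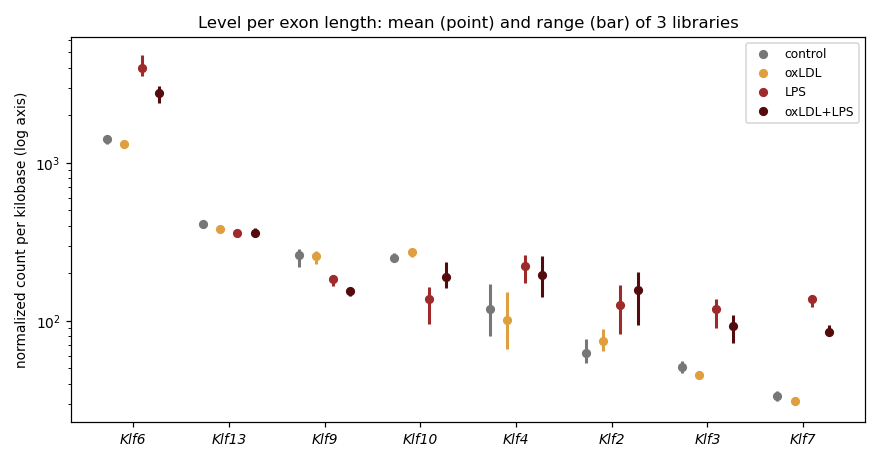
Normalized count per kilobase of annotated exon sequence (log axis) of the 8 KLF genes, ordered by their control mean, with a point for the mean and a bar for the range of 3 libraries in each of 4 groups. Klf6 lies above all others in each group, and Klf7 rises from 33.4 in control to 137 with LPS.

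LPS raised Klf7, Klf6, Klf3, Klf4 and Klf2 and lowered Klf10, Klf9 and Klf13 relative to control PMφs (limma, adjusted p under 0.1 in each). All 8 genes passed the filter, which asked for 10 or more in 3 or more of the libraries compared, and over all 13006 genes tested 31.4% were called higher and 30.3% lower. With oxLDL present, the same 5 genes were higher and Klf9 and Klf10 lower in oxLDL+LPS than in oxLDL libraries, against 28.1% and 26.3% of the 12883 genes tested there, and Klf13 was not called. In LPS against control the libraries of the 2 groups did not overlap for any of the 8 genes, which held for 32.1% of all genes in the higher and 31.1% in the lower direction. In oxLDL+LPS against oxLDL, 4 of the 8 genes were higher and 2 lower with no overlap, where the shares of all genes were 29.6% and 28.0%. Since the genes were listed for these values, nothing follows from these counts. The values of each gene follow by branch.

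**Figure D2:**
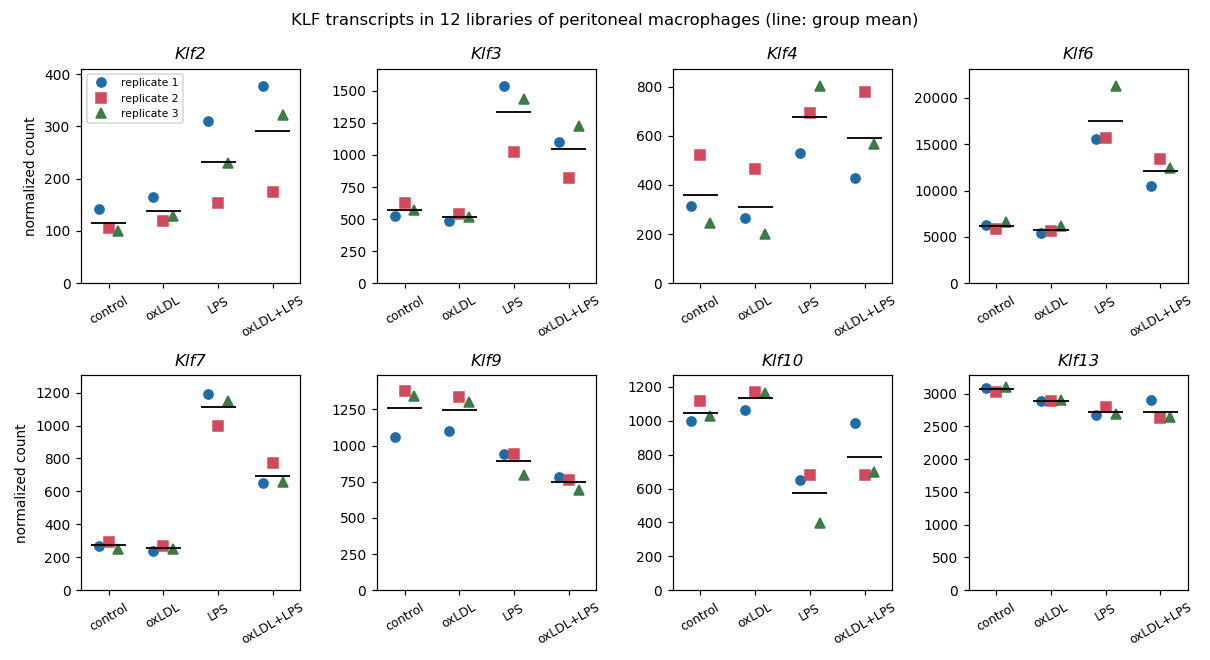
Normalized count (linear axis from 0) of each KLF gene in the 12 libraries, with 1 symbol per replicate number and a line at the group mean. Klf7 sits at 240 to 293 in the 6 libraries without LPS, at 999 to 1194 with LPS and at 648 to 770 with oxLDL and LPS.

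Klf7, a factor best known from neurons and adipocytes, is encoded on the minus strand of chromosome 1 between 64029447 and 64122282 (GRCm38, as are the positions of the other genes). The normalized count in replicates 1, 2 and 3 was 269, 293 and 253 in control, 240, 270 and 253 in oxLDL, 1194, 999 and 1147 in LPS and 648, 770 and 656 in oxLDL+LPS libraries. The 4 groups fell into 3 levels that did not overlap, with control and oxLDL together at the bottom. The log2 fold change was 2.03 in LPS against control (standard error 0.11, adjusted p = 4.85e-06, limma) and 1.44 in oxLDL+LPS against oxLDL (standard error 0.11, adjusted p = 5.21e-05, limma). Without replicate 1 these were 1.97 and 1.44. On the opposite strand the lincRNA Gm26649 shares 3196 exon bases with Klf7, and it was listed at 0 in every library.

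Klf6, an immediate early factor, lies on chromosome 13 from 5861482 to 5870394 on the plus strand. Control libraries held 6238, 5812 and 6621 normalized counts, oxLDL libraries 5455, 5629 and 6173, LPS libraries 15543, 15610 and 21248, and oxLDL+LPS libraries 10522, 13398 and 12466. Every library with LPS was above every library without it, and every oxLDL+LPS library was below every LPS library. The difference was 1.47 on the log2 scale in LPS against control (standard error 0.14, adjusted p = 9.26e-05, limma) and 1.07 in oxLDL+LPS against oxLDL (standard error 0.11, adjusted p = 2.51e-04, limma). Leaving out replicate 1 gave 1.55 and 1.13, and quantile normalization of the libraries brought the differences down to 0.70 and 0.45, both called. With the same total in every library they were 0.99 and 0.68.

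Klf2, a laminar-flow-induced factor of endothelium that also acts in T cells and macrophages, lies on chromosome 8 from 72319033 to 72321656 on the plus strand. It was at 142, 106 and 100 in control, 165, 119 and 129 in oxLDL, 311, 153 and 230 in LPS and 377, 175 and 321 in oxLDL+LPS libraries of replicates 1, 2 and 3. Replicate 2 was the lowest library of both LPS groups, and its LPS library (153) lay only just above the highest control library (142). The log2 fold change was 0.95 in LPS against control (standard error 0.27, adjusted p = 0.0192, limma) and 1.02 in oxLDL+LPS against oxLDL (standard error 0.29, adjusted p = 0.0242, limma). Without replicate 1 these were 0.86 (adjusted p = 0.0403, limma) and 0.93 (adjusted p = 0.0822, limma), and without replicate 3 neither was called (0.83, adjusted p = 0.126, and 0.87, adjusted p = 0.165, limma). With every library set to the same total they were 0.47 and 0.63 and not called. Replicate 1, which held the most mesothelial and fibroblast transcripts, had the highest Klf2 of every group. A list of 5 markers of large peritoneal macrophages, mostly Cd5l, was also highest in replicate 1 of every group, and lowest in replicate 2. It summed to 2656, 1572 and 2134 in control and 2723, 1263 and 1820 in LPS libraries. Vsig4 of that list was lowest in replicate 1 of control (50, 263 and 300). The sum of the endothelial list was lower with LPS as given above, through Vwf (1451, 1894 and 1476 in control and 433, 879 and 612 in LPS libraries). Kdr (271, 405 and 371 against 456, 406 and 674) and Cdh5 (9, 9 and 7 against 41, 64 and 30) were higher with LPS. The part of any of these cells in the level of Klf2 was not tested.

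Klf4 lies on chromosome 4 from 55527143 to 55532466 on the minus strand. Its values were 314, 523 and 245 in control, 264, 463 and 202 in oxLDL, 530, 693 and 802 in LPS and 429, 780 and 565 in oxLDL+LPS libraries. Replicate 2 was the highest library of every group but LPS, and replicate 3 was the lowest without LPS. The lowest LPS library (530) was close to the highest control library (523), and oxLDL and oxLDL+LPS libraries overlapped. The log2 fold change was 0.96 in LPS against control (standard error 0.28, adjusted p = 0.0213, limma) and 0.98 in oxLDL+LPS against oxLDL (standard error 0.33, adjusted p = 0.0450, limma). Replicates 1, 2 and 3 differed by 0.75, 0.41 and 1.71 in the first and by 0.70, 0.75 and 1.48 in the second, where number 1 compares different pools in both. The call in oxLDL+LPS against oxLDL was lost without replicate 1 (1.12, adjusted p = 0.104, limma), without oxLDL replicate 1 (0.91), without oxLDL replicate 3 (0.71) or without oxLDL+LPS replicate 2 (0.76). In LPS against control Klf4 was still called without replicate 1 (adjusted p = 0.0668, limma). Both calls were lost without replicate 3 (0.58, adjusted p = 0.150, and 0.72, adjusted p = 0.217, limma) and with the same total in every library (0.47 and 0.59).

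Klf3, the CtBP-binding repressor of the list, lies on chromosome 5 from 64803388 to 64832901 on the plus strand. Control libraries held 527, 629 and 568, oxLDL libraries 485, 539 and 519, LPS libraries 1540, 1019 and 1437 and oxLDL+LPS libraries 1097, 818 and 1226 normalized counts. The libraries with and without LPS did not overlap, and replicate 2, the highest without LPS, was the lowest with it. LPS raised Klf3 by 1.19 on the log2 scale (standard error 0.16, adjusted p = 5.64e-04, limma) in the absence and 1.01 (standard error 0.15, adjusted p = 0.00143, limma) in the presence of oxLDL. Without replicate 1 the differences were 1.02 and 0.92, and with equal totals 0.71 and 0.62, called in each case. A processed transcript on the opposite strand, Gm20033, shares 404 exon bases with Klf3 and was at 3 to 21.

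Klf10, induced early by TGF-β, lies on chromosome 15 from 38291463 to 38300706 on the minus strand. It was at 1001, 1118 and 1028 in control, 1066, 1169 and 1167 in oxLDL, 652, 681 and 397 in LPS and 987, 680 and 699 in oxLDL+LPS libraries. The oxLDL+LPS library of replicate 1 stood near the untreated level, while the other two stood near the LPS level. The log2 fold change was −0.90 in LPS against control (standard error 0.20, adjusted p = 0.00643, limma) and −0.54 in oxLDL+LPS against oxLDL (standard error 0.15, adjusted p = 0.0207, limma). In the latter the libraries numbered 1, which are of different pools, differed by −0.11, against −0.78 and −0.74 in replicates 2 and 3. Without replicate 1 the fits of the 2 comparisons gave −1.04 and −0.76. With the same total in every library the differences were −1.38 and −0.93. The call with oxLDL was lost without replicate 2 (−0.42, adjusted p = 0.132, limma) or replicate 3 (−0.45, adjusted p = 0.163, limma).

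Klf9, a direct target of the glucocorticoid receptor, lies on chromosome 19 from 23141226 to 23168134 on the plus strand. It was at 1057, 1380 and 1343 in control, 1102, 1338 and 1302 in oxLDL, 939, 942 and 797 in LPS and 780, 765 and 691 in oxLDL+LPS libraries. Replicate 1 was the lowest library in both groups without LPS. LPS changed Klf9 by −0.49 on the log2 scale (standard error 0.13, adjusted p = 0.0142, limma) and, in oxLDL-treated PMφs, by −0.74 (standard error 0.10, adjusted p = 9.996e-04, limma). Without replicate 1 these were −0.65 and −0.86, and without replicate 3 the first was not called (−0.36, adjusted p = 0.136, limma). Equal totals gave −0.97 and −1.13.

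Klf13, which was first described as a regulator of the chemokine gene Ccl5 in T cells, lies on chromosome 7 from 63886351 to 63938915 on the minus strand. It varied least of the 8 genes, with 3091, 3026 and 3098 in control, 2886, 2888 and 2909 in oxLDL, 2671, 2793 and 2683 in LPS and 2898, 2623 and 2649 in oxLDL+LPS libraries. The 3 oxLDL libraries lay between those of control and LPS. Its log2 fold change was −0.18 in LPS against control (standard error 0.08, adjusted p = 0.0831, limma), a call that was lost when any of 5 of the 6 libraries was left out, at adjusted p up to 0.218, and without the filter on low values (adjusted p = 0.141, limma). It was −0.09 in oxLDL+LPS against oxLDL (standard error 0.07, adjusted p = 0.368, limma). Without replicate 1 the differences were −0.16 (adjusted p = 0.230) and −0.14 (adjusted p = 0.310, limma), neither of them called. With the same total in every library these were −0.66 and −0.48, and when quantile normalized −0.69 and −0.52, all called, at all-gene medians of −0.48 and −0.41 with equal totals and of −0.14 and −0.13 when quantile normalized.

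oxLDL without LPS moved none of the 8 genes past the threshold, as it did for 0 of 12734 genes tested (0%) in limma, of which 379 had an unadjusted p under 0.05 and none of the 8 did. Libraries of control and oxLDL cells with the same number came from pools of the same make-up by Xist and the Y-linked genes, so a fit blocked on that number is added. With the block 4.70% of all genes were called, 2044 had an unadjusted p under 0.05, and again 0 of the 8 were called, although 5 of them (Klf2, Klf3, Klf4, Klf6 and Klf10) had an unadjusted p under 0.05. The largest of these differences were those of Klf2, 0.25 (standard error 0.11, adjusted p = 0.291, limma), and Klf4, −0.23 (standard error 0.07, adjusted p = 0.123, limma). In replicates 1, 2 and 3 Klf2 differed by 0.22, 0.17 and 0.36, and Klf4 by −0.25, −0.18 and −0.28. Klf13 was the only member whose oxLDL and control libraries did not overlap, at −0.09, which was so for 3.79% of all genes in the higher and 3.90% in the lower direction. In the fit without the block Klf9 differed by −0.01 (standard error 0.12) and Klf7 by −0.09 (standard error 0.10). With the block their standard errors were 0.05 and 0.08.

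**Figure D3:**
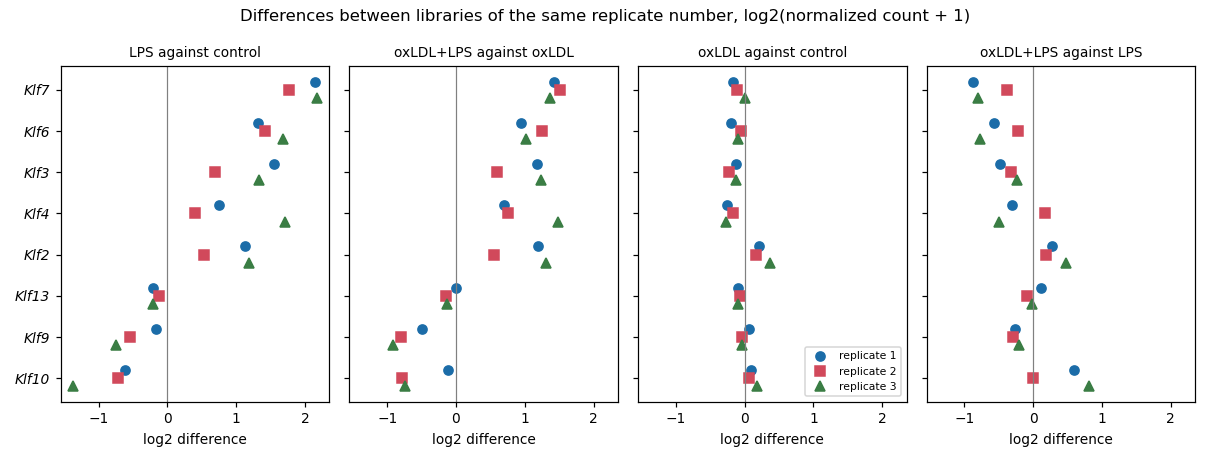
Difference in log2(normalized count + 1) between libraries with the same replicate number, for 8 KLF genes (rows) and 4 comparisons (panels). Differences with LPS reach 2.18 for Klf7 in replicate 3 and those of oxLDL against control stay between −0.28 and 0.36, and replicate 1 compares different pools in the panels of LPS against control and of oxLDL+LPS against oxLDL.

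In LPS-treated PMφs with oxLDL against those without, Klf7 was at 691 ± 68.2 against 1113 ± 102, and Klf6 at 12129 ± 1467 against 17467 ± 3275 normalized counts (SD, n = 3 each). Klf7, Klf6 and Klf9 were the members whose libraries did not overlap, all lower with oxLDL, against 6.37% of all genes in the lower and 6.18% in the higher direction. In the fit without the block 0 of the 12769 genes tested were called (0%), 890 had an unadjusted p under 0.05, and among the 8 genes Klf7 (−0.69, standard error 0.12) and Klf6 (−0.52, standard error 0.17) did, both with an adjusted p of 0.699 (limma). Pairing by replicate number, which holds within the LPS libraries, gave 4.41% of genes higher and 8.75% lower. Klf7 (adjusted p = 0.00902), Klf6 (0.0327), Klf3 (−0.34, 0.0346) and Klf9 (−0.26, 0.0711) were lower and Klf10 (0.47, 0.0718) was higher in that limma fit. Klf2 was higher in each replicate, by 0.28, 0.19 and 0.48, and not called (adjusted p = 0.104, limma). Klf4 was lower in replicates 1 and 3 (−0.30 and −0.50) and higher in replicate 2 (0.17). Klf13 was level, at 0.00 (standard error 0.07). Replicate 2 showed the smallest difference for Klf7 (−0.38, against −0.88 and −0.81) and Klf6 (−0.22, against −0.56 and −0.77), and none for Klf10 (0.00, against 0.60 and 0.81). The block fit called 0 of the 8 genes without replicate 1, 6 without replicate 2 and 0 without replicate 3. Each of these fits holds only 2 pairs of libraries, so its p-values rest mostly on a spread estimated over all genes, and its calls are weak. Without replicate 2 Klf9 was no longer called (−0.24, adjusted p = 0.104) while Klf2 (0.38, adjusted p = 0.0241) and Klf4 (−0.40, adjusted p = 0.00297, limma) were. With all 3 pairs Klf4 was not called in the block fit (adjusted p = 0.319, limma). With the same total in every library the block fit no longer called Klf3 (−0.25, adjusted p = 0.125) or Klf9 (−0.17, adjusted p = 0.205), and it called Klf2 (0.41, adjusted p = 0.0902, limma).

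Whether the effect of LPS differed with oxLDL was tested as an interaction over all 12 libraries, which called 0 of 13465 genes (0%) with an adjusted p under 0.1, with 416 at an unadjusted p under 0.05, and 0 (0%) with the block, where 967 had an unadjusted p under 0.05. That block spans both LPS states, across which replicate 1 is not the same pool. Klf7 had an interaction of −0.59 (standard error 0.15, unadjusted p = 0.00199, adjusted p = 1.000 by limma) and Klf6 of −0.40 (standard error 0.19, adjusted p = 1.000 by limma). Without replicate 1 these were −0.53 and −0.42, and 0 of the 8 genes were called. For Klf2 and Klf4 it was 0.07 and 0.02 over all 12 libraries, with standard errors of 0.43 and 0.48. A larger rise of Klf7 with LPS in the absence of oxLDL was thus not called after adjustment over all genes.

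Of the 9 KLF genes that were not listed, most were at or near 0. Klf1, Klf12, Klf15 and Klf17 had normalized counts of at most 8, and Klf14 was listed at 0 in every library. Klf8, the X-linked relative of Klf3, was at 108, 127 and 140 in control and at 290, 346 and 466 in LPS libraries, which is 1.53 higher on the log2 scale (standard error 0.20, adjusted p = 4.18e-04, limma). With oxLDL it went from 112, 109 and 121 to 233, 302 and 332, by 1.32 (standard error 0.16, adjusted p = 5.29e-04, limma). Without replicate 1 the differences of Klf8 were 1.58 and 1.46 (adjusted p = 0.00284 and 0.00331, limma). Every LPS library was above every library without LPS, and an exact two-sided permutation test of 3 against 3 libraries cannot give less than p = 0.1. Within LPS-treated PMφs Klf8 was lower with oxLDL in the block fit (−0.33, adjusted p = 0.0756, limma). Klf16 rose by 0.33 in LPS against control (adjusted p = 0.0728, limma), less than the shift that equal totals bring, was at −0.02 in oxLDL+LPS against oxLDL, and was not called without replicate 1 (0.25, adjusted p = 0.264, limma). Klf5 went from 6, 6 and 2 to 17, 16 and 11, which is few counts, and without replicate 1 it did not pass the filter. Klf11, the nearest relative of Klf10, was at 102, 118 and 126 in control and 99, 130 and 123 in LPS libraries (0.02, standard error 0.17, adjusted p = 0.931, limma), and at 0.05 without replicate 1.

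Genes around the KLFs were read from lists written with earlier results of these data known, and their counts stand beside 31.4% of all genes higher and 30.3% lower in LPS against control, and 28.1% and 26.3% in oxLDL+LPS against oxLDL. Without replicate 1 these shares were 28.1% and 26.1%, and 23.7% and 21.0%. The MEF2 and ERK5 pathway induces Klf2 and Klf4 in endothelium, and 6 of its 7 tested genes fell with LPS, where 30.3% of all genes did, with a median of −0.59 where the median of all genes was −0.00. Mef2d, a transcription factor of that pathway, changed by −1.22 and Map2k5, the kinase that activates ERK5, by −0.92 (adjusted p = 3.16e-05 and 4.11e-04, limma), while Mapk7, which encodes ERK5, stood at −0.01. In oxLDL+LPS against oxLDL 6 of 7 fell too, with a median of −0.46, and without replicate 1 the counts were again 6 of 7 in both comparisons.

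Of 15 tested co-regulators and ubiquitin ligases of KLFs, 8 were higher and 2 lower with LPS (median 0.27), and 4 of the 8 (Crebbp, Hdac2, Hdac3 and Smurf1) by no more than 0.43, which equal totals would turn. Kat2b, the acetyltransferase PCAF, rose by 1.60 and Hdac1, a deacetylase of SIN3 complexes, by 1.54 (adjusted p = 4.57e-06 and 9.83e-05, limma). The 2 that fell were Wwp1 (−0.72, adjusted p = 6.83e-04) and Fbxw7 (−0.70, adjusted p = 0.00477, limma), which encode ubiquitin ligase components that target KLF proteins. The same 4 genes were called in the same directions in oxLDL+LPS against oxLDL, where 7 of the 15 were higher and 4 lower. There too, equal totals would turn a rise smaller than the shift they bring (−0.39). Without replicate 1, Hdac2, Hdac3, Smurf1 and Ep300 stood at 0.29, 0.18, 0.33 and 0.13 in that comparison and were not called. Without replicate 1 the counts were 7 higher and 2 lower in LPS against control and 4 higher and 1 lower in oxLDL+LPS against oxLDL, the latter without Fbxw7 (−0.58, adjusted p = 0.107, limma). Among the SP factors, zinc finger relatives of the KLFs, 4 of 9 were tested. Sp2 was higher (0.58, adjusted p = 0.00711) and Sp4 lower (−0.40, adjusted p = 0.0362, limma) with LPS, and Sp1 and Sp3 stood at 0.04 and 0.05. Sp4 was not called without replicate 1 (−0.34, adjusted p = 0.133, limma).

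Of 15 tested genes reported as targets of KLF2 and KLF4, 5 were higher and 6 lower with LPS (median −0.16), where 31.4% and 30.3% of all genes were. Thbd, the thrombomodulin gene that KLF2 activates in endothelium, fell from 740 to 54.0 normalized counts on average (log2 fold change −3.93, adjusted p = 1.16e-04, limma). Pparg, a nuclear receptor of alternative activation, changed by −3.59 (adjusted p = 1.61e-06), whereas Cd14, the LPS co-receptor, rose by 3.78 (adjusted p = 6.15e-07) and Cdkn1a, the p21 gene, by 4.42 (adjusted p = 1.06e-06, limma). With oxLDL, 5 were higher and 7 lower, including Gas6, a ligand of MERTK (−1.34, adjusted p = 3.24e-04, limma). Without replicate 1, 4 of 14 were higher and 5 lower in LPS against control, and 4 higher and 6 lower in oxLDL+LPS against oxLDL. Within LPS-treated PMφs the block fit called 2 of the 15 higher with oxLDL and 3 lower, against 4.41% and 8.75% of all genes. Thbd (0.88, adjusted p = 0.0173), from 54.0 to 100 normalized counts, and S1pr1 (0.41, adjusted p = 0.0636) were the higher ones, and Cd14 (−0.35, adjusted p = 0.0802), Mertk (−0.35, adjusted p = 0.0637) and Timd4 (−0.67, adjusted p = 0.0506, limma) the lower ones.

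For Klf10, 4 of the 13 TGF-β pathway genes tested were higher with LPS and 4 were lower (median −0.42). The receptor gene Tgfbr2 changed by −1.29 and the co-repressor gene Ski by −1.61 (adjusted p = 3.35e-05 and 4.53e-05), while Skil rose by 1.32 and Smad2 by 0.87 (adjusted p = 7.51e-05 and 1.31e-04, limma). In oxLDL+LPS against oxLDL 3 were higher and 4 lower, these 4 genes among them in the same directions. Without replicate 1 the counts were 5 higher and 5 lower, and 3 and 3. For Klf9, 3 of 10 glucocorticoid and clock genes were higher and 4 lower with LPS (median −0.35). Tsc22d3, which encodes the glucocorticoid-induced protein GILZ, changed by −3.44 and the clock output gene Dbp by −3.32 (adjusted p = 1.62e-06 and 8.52e-05), whereas the receptor gene Nr3c1 rose by 1.17 and Fkbp5 by 1.63 (adjusted p = 3.33e-05 and 3.33e-04, limma). In the presence of oxLDL 2 were higher and 4 lower. Without replicate 1, 2 of 9 were higher and 4 lower in LPS against control, and 2 higher and 3 lower in oxLDL+LPS against oxLDL.

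Of 13 inflammatory genes linked to Klf2, Klf4 and Klf6, 12 rose with LPS and none fell, without and with oxLDL (medians 9.83 and 9.03). Without replicate 1, where 10 of them passed the filter, 9 rose and none fell in either comparison. Cxcl10 rose by 11.25 and Tnf by 9.83 (adjusted p = 2.35e-07 each, limma), while Nfkbia and Nos2 rose by 4.64 and 10.90 in oxLDL-treated PMφs (adjusted p = 3.15e-07 and 1.32e-06, limma). Within LPS-treated PMφs 11 of the 13 were lower and 1 higher with oxLDL in the block fit, with a median of −0.98, against 8.75% of all genes lower and 4.41% higher. Without the block 0 were called there, and 5 had an unadjusted p under 0.05. Hif1a, a factor of glycolytic and inflammatory genes, was among the 11 (−0.51, adjusted p = 0.0127, limma).

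**Figure D4:**
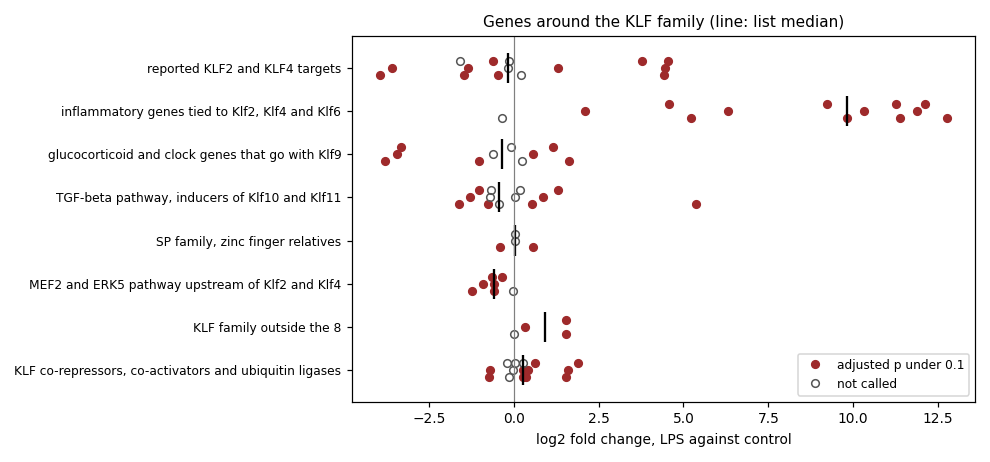
Log2 fold change in LPS against control of each tested gene (point) in 8 lists of genes around the KLF family, filled where the adjusted p from limma was under 0.1, with a line at each median. Of the MEF2 and ERK5 list 6 of 7 points are filled and lie below 0, and 12 of the 13 inflammatory genes lie above 2.

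The genes whose profile over the 12 libraries was most like that of each KLF were sought among 8229 genes outside the family with a value of at least 100 in every library. Likeness was the root mean square difference of log2 values after each gene's own mean was taken away. Klf7 was most like Hif1a (0.12), Mier3 (0.15) and Gda (0.16), against a range of 2.31 for Klf7 itself. Hif1a went from 2037 ± 36.7 in control to 8688 ± 696 with LPS and 6077 ± 183 with oxLDL and LPS (SD, n = 3 each). Klf6 was most like Tmod3 (0.10), Inpp5b (0.11) and Ppp1r15b (0.12), and Klf3 most like Pirb (0.11), Cep350 (0.13) and Prrc2c (0.13). Pirb, an inhibitory receptor gene, was at 9499 ± 343 in control, 20202 ± 3908 in LPS and 15267 ± 1325 in oxLDL+LPS libraries (SD, n = 3 each).

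Klf9 had near neighbours in Tnrc6c (0.07), Pmp22 (0.08) and Polr2a (0.11), the last of which encodes the largest subunit of RNA polymerase II. Klf10 was most like Ndc1 (0.15), 1190002N15Rik (0.15) and Osbpl2 (0.16). Klf13, with a range of only 0.24, was within 0.06 of Prkacb, Usp38 and Ctnnbl1. The least close were those of Klf2, with 1110008F13Rik (0.24), Nlrc4 (0.24) and Zswim4 (0.26), and of Klf4, with B2m (0.24), 2810474O19Rik (0.27) and Polr3d (0.27). Within the family, the closest pairs by the same measure were Klf3 with Klf6 (0.26), Klf6 with Klf7 (0.28) and Klf9 with Klf13 (0.29), and the farthest were Klf7 and Klf10 (1.32). These differences describe 12 libraries that share pools, treatments and scaling.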

How the data were processed

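Poly(A) RNA of 12 PMφ cultures was sequenced. The authors trimmed reads with Trimmomatic 0.32, aligned them to GRCm38 with STAR 2.5.1b and summarized reads over the exons of GENCODE genes with featureCounts, per the labels and the study's methods. The deposited values, a score here, are whole numbers that keep to counts divided by 1 factor per library. How they were scaled, and whether counting used the strand, is not given in the sources used here. A spreadsheet had turned 25 symbols into dates, and these rows were left out.

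The 8 genes and all lists were chosen with earlier results of these data known. Groups came from the sample titles. Values were compared with limma 3.58.1 (R 4.3.3) on log2(value + 1), over all genes that reached 10 in 3 or more of the fitted libraries, with Benjamini-Hochberg adjustment over all of them and calls at an adjusted p under 0.1. Fold changes are on that log2(value + 1) scale, which understates those of low genes. Pairwise comparisons used their own 6 libraries, and the interaction all 12. The scripts were tested on simulated data. Named genes were the KLF family, the 2 genes with the smallest p per list, direction and comparison among those called, and the 3 profiles most like each listed KLF; Mapk7, Sp1, Sp3, Hif1a and, in the comparison within LPS-treated cells, Thbd, S1pr1, Cd14, Mertk and Timd4 were added after their values were seen. Positions and exon lengths came from GENCODE M21 on GRCm38, promoters from RefSeq. The study's methods name an earlier GENCODE release for the counts, so the exons counted can differ from those behind the levels per kilobase.

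The study's methods describe pools divided among groups. Deviations from the group means of libraries with the same number had correlations of 0.31 to 0.73 over 11170 genes in all 18 pairs of libraries with the same number from different groups, which are genes and not independent replicates. Xist and the Y-linked genes showed that number 1 is not the same pool with and without LPS. The block is therefore given beside the comparisons within an LPS state. Without the block the p-values measure the spread between libraries of a group and take no account of pools shared between groups. With the block they measure the spread of the differences within replicate numbers. Alternatives were another pseudocount, filters, scalings, all 12 libraries, the replicate block and leaving out libraries. Leaving out whole replicate numbers, and the fits that vary the block, were chosen after seeing the data.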

Additional observations from a re-analysis of the deposited data

How the results depend on the processing

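Of the 8 KLF genes, 8 were called in LPS against control and 7 in oxLDL+LPS against oxLDL. With libraries or replicate numbers left out the counts ran from 4 to 8 and from 4 to 7, the lowest being those without replicate 3, and the pseudocount, filter, scaling and all-library settings gave 6 to 8 in each. In oxLDL+LPS against LPS the count was 0, it was 5 with the replicate block, and with libraries left out it ran from 0 to 1, the 1 being Klf7 without oxLDL+LPS replicate 2 or without replicate 2. With the replicate block and a replicate number left out it ran from 0 to 6, and for oxLDL against control from 0 to 1, the 1 being Klf6 without replicate 3. Those fits hold only 2 pairs of libraries, so their p-values rest mostly on a spread estimated over all genes. The block changed no other call of the 8 genes. Directions turned only for differences that were not called. In oxLDL against control Klf9 was 0.00809 when quantile normalized, −0.13 to 0.0770 with libraries left out and −0.0446 to 0.00777 so in the block, and Klf4 was −0.57 to 0.0702. In oxLDL+LPS against LPS Klf13 was −0.0545 to 0.0496 with numbers left out, in either fit. The interaction was −0.20 to 0.40 for Klf2 and −0.28 to 0.35 for Klf4. The cause was not tested. With 3 libraries a group and pools that differ, a p that misses the threshold does not show that levels were equal.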
